A study of Mus musculus with 4 samples.

Results

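The genes that encode the subunits of RNA polymerases I, II and III, the Mediator complex and the TBP-associated factors (TAFs) were examined for binding of SHP (small heterodimer partner, a nuclear receptor without a DNA-binding domain that acts as a transcriptional corepressor) in mouse liver. The members were all protein-coding genes of the GENCODE M1 annotation whose symbol begins with Polr1, Polr2, Polr3, Med or Taf followed by the subunit's number or letter. This gave 79 of 22238 protein-coding genes, of which 5 were Polr1, 12 Polr2, 10 Polr3, 30 Med and 22 Taf genes. A member was counted as bound in a group when a peak of that group's list overlapped its gene body or lay within 5 kb of it.

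Male wild-type C57BL/6 mice of 8 to 12 weeks were fasted for 12 h, given either vehicle or FGF19 (1 mg/kg) through the tail vein, and killed for liver collection after 2 h. FGF19 is the human form of an intestinal hormone that is released after a meal and represses bile acid synthesis in the liver. Chromatin was precipitated with 1 SHP antibody, and material from 3 mice was pooled into 1 ChIP library and 1 input library per group, so there is no spread between mice and no test between the vehicle and FGF19 groups. The vehicle list holds 1508 peaks from 15473647 ChIP tags and the FGF19 list 3155 peaks from 13444078 ChIP tags, and a library from mice without SHP was not analysed here.

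RNA polymerase I makes the large ribosomal RNA, polymerase II the messenger RNAs, and polymerase III transfer RNAs and the smallest ribosomal RNA. Each is built around its own pair of large catalytic subunits, while some small subunits are shared between them. Polymerase II is brought to promoters by TFIID, which consists of TBP and TAFs, and takes signals from DNA-bound activators through Mediator, a complex with head, middle, tail and kinase modules. Several TAFs also sit in the coactivator SAGA, and a separate set of TAFs forms SL1, the TBP complex of polymerase I.

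The sequences below are shown because member peaks that were high or held a motif lie on these promoters. The Polr2e and Med4 stretches do not hold the summit, which lies in an exon. They come from the mouse reference genome NCBIM37 (mm9), are written 5′ to 3′ on the strand of the named gene, lie inside the peak and outside every annotated exon, and have in capitals the exact matches to the sequence motifs described further on. The stretches of Taf9, Polr3f and Polr3g hold no match and have no capitals.
Polr2e (FGF19 list, chr10:79502541-79502665, - strand): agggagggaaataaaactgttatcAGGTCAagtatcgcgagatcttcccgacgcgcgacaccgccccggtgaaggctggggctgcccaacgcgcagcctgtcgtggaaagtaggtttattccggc
Taf9 (FGF19 list, chr13:101421051-101421250, + strand): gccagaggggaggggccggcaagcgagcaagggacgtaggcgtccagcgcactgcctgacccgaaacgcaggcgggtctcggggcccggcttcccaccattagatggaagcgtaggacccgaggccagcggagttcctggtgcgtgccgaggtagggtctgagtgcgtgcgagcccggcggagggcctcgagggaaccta
Polr3f (vehicle list, chr2:144353233-144353432, + strand): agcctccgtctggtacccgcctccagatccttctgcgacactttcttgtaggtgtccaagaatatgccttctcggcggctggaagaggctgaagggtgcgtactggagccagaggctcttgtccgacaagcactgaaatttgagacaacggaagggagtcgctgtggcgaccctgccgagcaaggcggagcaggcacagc
Polr3g (FGF19 list, chr13:81850055-81850254, - strand): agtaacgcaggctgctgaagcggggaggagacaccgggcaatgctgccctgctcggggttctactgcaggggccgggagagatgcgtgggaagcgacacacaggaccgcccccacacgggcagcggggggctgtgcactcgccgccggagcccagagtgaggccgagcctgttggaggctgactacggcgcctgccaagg
Taf5l (FGF19 list, chr8:126545210-126545407, - strand): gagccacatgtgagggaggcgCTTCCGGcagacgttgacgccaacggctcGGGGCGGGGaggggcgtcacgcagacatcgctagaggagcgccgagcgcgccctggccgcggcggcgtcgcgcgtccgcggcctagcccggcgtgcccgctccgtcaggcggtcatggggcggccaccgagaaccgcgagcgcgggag
Med25 (FGF19 list, chr7:52147813-52148012, - strand): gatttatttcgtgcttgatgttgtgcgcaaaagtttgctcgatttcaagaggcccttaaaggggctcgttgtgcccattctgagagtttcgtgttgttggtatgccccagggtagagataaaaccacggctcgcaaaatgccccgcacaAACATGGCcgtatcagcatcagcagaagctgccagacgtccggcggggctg
Med4 (FGF19 list, chr14:73909718-73909855, + strand): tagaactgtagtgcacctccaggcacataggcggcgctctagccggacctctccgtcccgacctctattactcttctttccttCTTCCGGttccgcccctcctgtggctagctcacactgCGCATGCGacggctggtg
Taf3 (vehicle list, chr2:9970238-9970437, - strand): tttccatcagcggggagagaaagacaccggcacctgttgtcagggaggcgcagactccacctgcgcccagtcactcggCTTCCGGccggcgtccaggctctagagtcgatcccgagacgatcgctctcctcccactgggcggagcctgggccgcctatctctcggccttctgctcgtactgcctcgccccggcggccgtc

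SHP peaks were listed at 30 of the 79 genes in at least 1 group, which is 38.0% (95% Wilson interval 28.1 to 49.0) beside 20.0% of all protein-coding genes. With vehicle 13 genes had a peak, 16.5% (9.88 to 26.1) beside a background of 7.95%. With FGF19 27 genes had a peak, 34.2% (24.7 to 45.2) beside 16.4%. In both lists the share of polymerase, Mediator and TAF genes was above that of all genes, and the lower end of the interval was above it too. The intervals cover counting error over genes only, and subunit genes are not independent samples.

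Of these genes, 10 had a peak in both lists, 12.7% (7.02 to 21.8) beside 4.33% of all genes. They were Polr1b, Polr2e, Polr2h, Polr3f, Polr3g, Med23, Taf3, Taf6l, Taf8 and Taf9. A peak in the FGF19 list only was found at 17 genes, 21.5% (13.9 to 31.8) beside 12.1%. A peak in the vehicle list only was found at 3 genes, Polr2b, Med22 and Taf5, which is 3.80% (1.30 to 10.6) and close to the background of 3.63%. A gene without a listed peak may still carry signal below the authors' cutoff, which the lists do not show. The FGF19 list is also the longer one: among its 1508 peaks with the smallest q-values, 13 of the 79 genes had a peak, beside 8.09% of all genes, which is the same number of members as with vehicle.

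**Figure D1:**
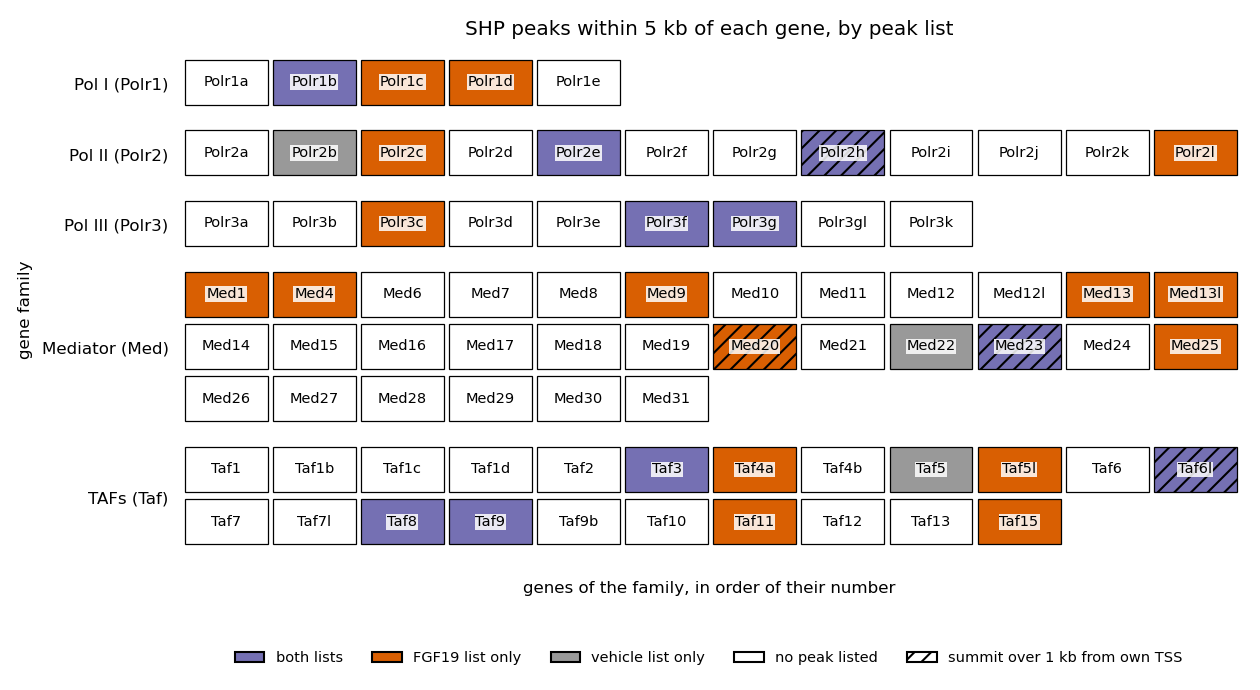
Map of 78 of the genes by family (rows) in order of subunit number, coloured by the list in which a peak lay within 5 kb. Violet marks the 10 genes in both lists, orange 16 in the FGF19 list only, grey the 3 in the vehicle list only, and hatching the genes whose summits lay over 1 kb from their own transcription start site.

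Each bound gene had exactly 1 peak in a list, so the lists held 13 and 27 member peaks. Their heights were close to those of each list as a whole. The median fold enrichment over input was 4.09 with vehicle (quartiles 3.63 to 5.19, n = 13 peaks) beside 4.14 for all vehicle peaks, and 4.16 with FGF19 (3.68 to 4.62, n = 27) beside 4.05 for all FGF19 peaks. The median pileup, the number of extended tags over the summit, was 24 with vehicle (range 18 to 61) and 25 with FGF19 (range 16 to 37), beside 24 over all peaks of either list. Pileups of this size carry wide counting intervals, from 9.15 to 26.0 around the lowest value of 16 tags.

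**Figure D2:**
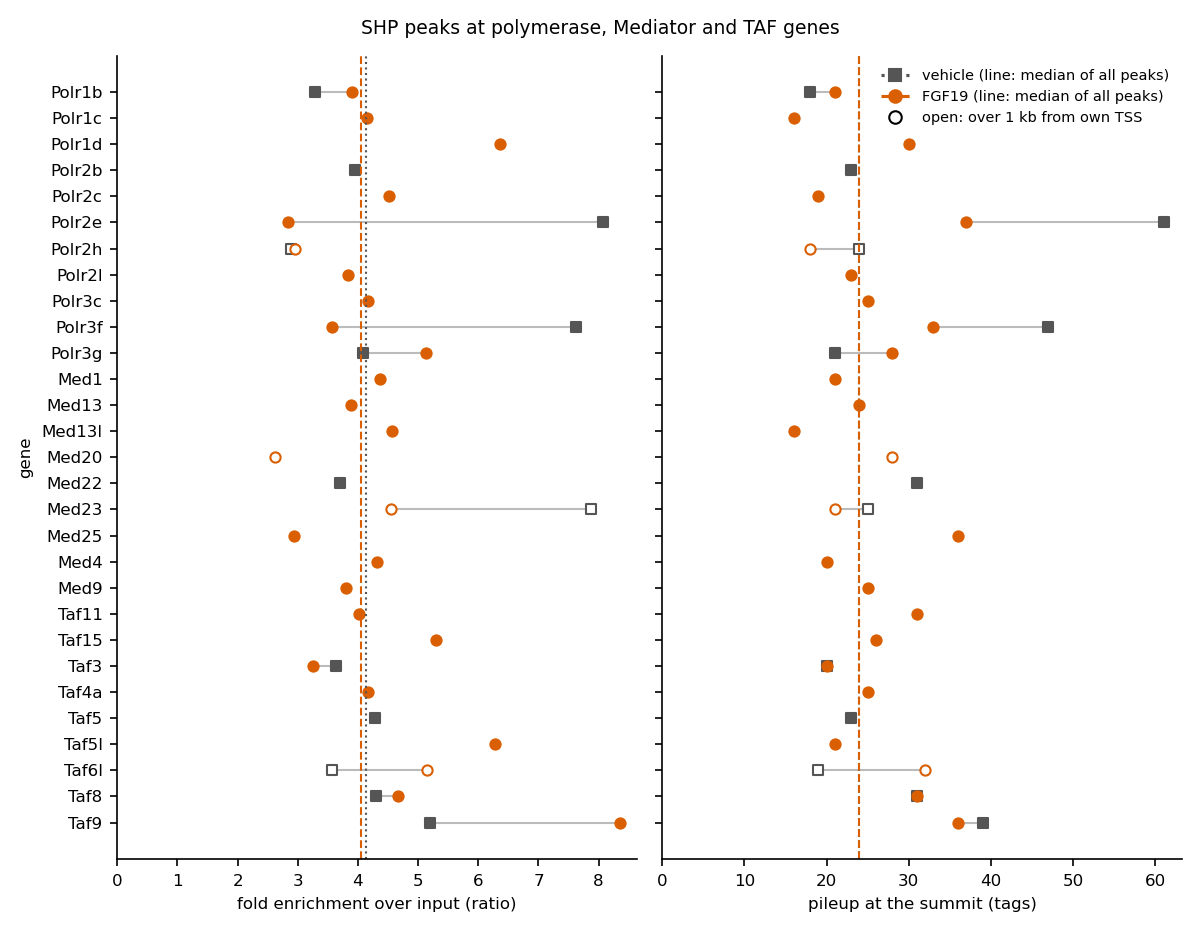
Fold enrichment over input (left, ratio) and pileup at the summit (right, tags) of the member peaks, 1 row per gene shown. Squares are vehicle peaks, circles FGF19 peaks, open symbols summits over 1 kb from the gene's own start site, and vertical lines the medians of all peaks of a list. Most points lie near the medians. With vehicle, Polr2e and Polr3f lie far right in both panels and Med23 in the left panel only. With FGF19, Taf9 lies far right in the left panel, and Polr2e, Taf9 and Med25 have the largest pileups.

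Among the polymerase I genes, 1 of 5 had a vehicle peak (20%, 3.62 to 62.4) and 3 of 5 an FGF19 peak (60%, 23.1 to 88.2). Over all genes the shares were 7.95% and 16.4%. At equal list lengths it was 1 of 5 in each, beside 7.95% and 8.09% of all genes. Polr1b, the second-largest subunit, had peaks in both lists at chr2:128926592-128926922 with vehicle and chr2:128926647-128926974 with FGF19. The vehicle peak had 18 tags and a fold enrichment of 3.28, among the 3 lowest member values of that list, with its summit 121 bp downstream of the start site in a coding exon. The FGF19 peak had 21 tags and a fold enrichment of 3.90, with its summit 23 bp downstream in the 5′ UTR.

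Polr1c and Polr1d encode the pair of subunits that polymerases I and III share, and both had a peak with FGF19 only. The Polr1d peak (chr5:147888934-147889435, 30 tags) reached a fold enrichment of 6.36, above 94.8% of the FGF19 list, with the summit 252 bp downstream of the start site. The Polr1c peak was lower, with 16 tags and 4.15-fold enrichment. Its summit was 192 bp upstream of Polr1c and 101 bp from the start site of Yipf3 on the other strand. No peak was listed at Polr1a, the largest subunit of polymerase I, or at Polr1e.

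Among the Polr2 genes, 3 of 12 had a vehicle peak (25%, 8.89 to 53.2), beside 7.95% of all genes. With FGF19 4 of 12 had one (33.3%, 13.8 to 60.9), an interval that holds the 16.4% of all genes. In either list 5 had one. Among the 1508 FGF19 peaks with the smallest q-values no Polr2 gene had one, so at equal list lengths the vehicle count was the higher. Subunits shared by all nuclear polymerases made up 3 of these 5, Polr2e, Polr2h and Polr2l, out of 5 such genes. Of the 7 genes for subunits of polymerase II alone, 2 had a peak in either list (28.6%), beside 20.0% of all genes. Polr2b, the second-largest subunit, had one with vehicle only (chr5:77739115-77739468, 23 tags, fold enrichment 3.95), with the summit 95 bp downstream of the start site. The Polr2b summit was also 158 bp from a start site of 2610024G14Rik on the other strand. Polr2c, the assembly subunit RPB3, had one with FGF19 only (chr8:97381324-97381583, 19 tags, fold enrichment 4.51). Its summit lay in the 5′ UTR of Polr2c, 27 bp upstream of the nearest of the gene's start sites. No peak lay within 5 kb of Polr2a, the largest subunit.

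Polr2e, which encodes RPB5, carried the highest member pileup in each list. With vehicle its peak (chr10:79502345-79502834) had 61 tags (exact Poisson interval 46.7 to 78.4) and a fold enrichment of 8.07, the largest of the 13 vehicle member peaks. With FGF19 the peak (chr10:79502398-79502665) had 37 tags (26.1 to 51.0) and a fold enrichment of 2.84, the second lowest of the 27 FGF19 member peaks. Both summits lay in the 5′ UTR, 35 and 33 bp from start sites of Polr2e and 17 bp from each other. The same promoter was thus near the top of one list by fold enrichment and near the bottom of the other while it kept the highest member pileup in both.

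Polr2h encodes RPB8, and its peaks lay at the neighbouring gene. The vehicle peak (chr16:20716087-20716719, 24 tags, fold enrichment 2.89, the lowest vehicle member value) had its summit 1427 bp upstream of Polr2h and 74 bp from a start site of Clcn2. The FGF19 peak (chr16:20716164-20716512, 18 tags, fold enrichment 2.96) had its summit 1515 bp upstream of Polr2h and 14 bp from a start site of Clcn2. Both summits lay in the 5′ UTR of Clcn2, a chloride channel gene. Polr2l, which encodes RPB10, had a peak with FGF19 only (chr7:148661079-148661662, 23 tags, fold enrichment 3.84), and its summit was also nearer to another gene, 243 bp upstream of Polr2l and 135 bp from Tspan4.

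Among the Polr3 genes, 2 of 10 had a vehicle peak (20%, 5.67 to 51.0), beside 7.95% of all genes. With FGF19 4 of 10 had one (40%, 16.8 to 68.7), beside 16.4%. Of the 4 genes for the initiation trimer of polymerase III, 3 had a peak in either list, Polr3c, Polr3f and Polr3g. Over all genes 20.0% had one. Each of these 3 genes starts within 1 kb of another gene on the opposite strand. Over all genes with such a start 36.6% had a peak in either list. Of the paralogous pair Polr3g and Polr3gl, Polr3g had a peak in both lists and Polr3gl in neither. Neither of the large catalytic subunits, Polr3a and Polr3b, had a peak within 5 kb.

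Polr3f was the second-highest vehicle member by pileup. Its vehicle peak (chr2:144353163-144353478) had 47 tags (34.5 to 62.5) and a fold enrichment of 7.62, and its FGF19 peak (chr2:144353216-144353562) had 33 tags (22.7 to 46.3) and a fold enrichment of 3.57. The summits lay 121 and 131 bp upstream of Polr3f, in the printed stretch between this gene and 6330439K17Rik on the other strand. Polr3g went the other way, from 21 tags and a fold enrichment of 4.09 with vehicle (chr13:81849961-81850283) to 28 tags and 5.14 with FGF19 (chr13:81850004-81850271), with the summits 139 and 143 bp upstream. These summits were also 265 and 261 bp from a start site of Mblac2 on the other strand. The FGF19 peak at Polr3c (chr3:96531209-96531532, 25 tags, fold enrichment 4.16) had its summit in the 5′ UTR of Polr3c, 22 bp upstream of the nearest of the gene's start sites. A start site of Rnf115 on the other strand was 113 bp from this summit.

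The Mediator genes had the lowest share with vehicle, 2 of 30 genes or 6.67% (1.85 to 21.3), which is close to the 7.95% of all genes. With FGF19 8 of 30 had a peak, 26.7% (14.2 to 44.4), an interval that holds the 16.4% of all genes, and at equal list lengths the number with FGF19 was 2, as with vehicle. Over all genes the share with a peak in either list was 20.0%. By module, peaks in either list were found at 2 of 7 head genes, 3 of 9 middle genes, 2 of 5 tail genes and 2 of 4 kinase module genes. None lay at the scaffold gene Med14 or at the 4 genes that link head and tail, Med27, Med28, Med29 and Med30.

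In the middle module, Med1, Med4 and Med9 had peaks with FGF19 only. Med1, the subunit that contacts ligand-bound nuclear receptors, had a peak at chr11:98054298-98054586 with 21 tags and a fold enrichment of 4.37, its summit 80 bp downstream of the start site in the 5′ UTR. The peaks at Med4 (chr14:73909718-73910096, 20 tags, fold enrichment 4.31) and Med9 (chr11:59761676-59762157, 25 tags, fold enrichment 3.79) had their summits 14 and 190 bp downstream, in coding exons. The Med9 summit was also 254 bp from a start site of 1700013G23Rik on the other strand. In the kinase module, the paralogs Med13 and Med13l both had an FGF19 peak upstream of the gene, with summits 551 and 716 bp before the start site and fold enrichments of 3.88 and 4.56, while Med12 and Med12l had none.

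In the head module, Med22 had a peak with vehicle only (chr2:26766080-26766550, 31 tags, fold enrichment 3.70), with the summit 121 bp upstream of Med22 and 19 bp from the start site of the ribosomal protein gene Rpl7a, in whose 5′ UTR it lay. Med20 had a peak with FGF19 only (chr17:47766279-47766814, 28 tags) with the lowest member fold enrichment of that list, 2.62. The symbol Med20 covers 2 gene records, which together span chr17:47748531-47821015 on the + strand. The summit lay inside this span, in an annotated intron of Med20 and not at its first start site. It was 1080 bp upstream of the nearest Med20 start site and of one of Usp49. In the tail module, Med25 had an FGF19 peak (chr7:52147780-52148095) with 36 tags (25.2 to 49.8) and a fold enrichment of 2.93, so that a pileup above 91.9% of the list stood beside a fold enrichment above only 8.18% of it. The summit lay 134 bp upstream of Med25, in the printed stretch.

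The Med23 peaks do not lie at the Med23 promoter. The vehicle peak (chr10:24635176-24635700, 25 tags, fold enrichment 7.87) and the FGF19 peak (chr10:24635186-24635541, 21 tags, fold enrichment 4.55) were 1841 and 1851 bp beyond the end of Med23, and their summits were 45528 and 45569 bp from its start site. Both summits lay in the 3′ UTR of Arg1, the arginase of the urea cycle, which ends next to Med23 on the other strand. Without this gene, 1 Mediator gene would be counted with vehicle, Med22, and the summit there was nearest to Rpl7a.

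Among the TAF genes, 5 of 22 had a vehicle peak, 22.7% (10.1 to 43.4) beside 7.95% of all genes. With FGF19 8 of 22 had one, 36.4% (19.7 to 57.0) beside 16.4%. With only those peaks whose summit was nearest to the TAF gene's own start site, 3 of 22 genes were left in each list. Over all genes this rule left 5.44% with vehicle and 11.8% with FGF19. Peaks in either list lay at 5 of the 12 genes for TAFs of TFIID alone (Taf3, Taf4a, Taf5, Taf8 and Taf11), at 1 of the 4 for TAFs found in both TFIID and SAGA (Taf9), at both SAGA-type genes (Taf5l and Taf6l), at Taf15, an RNA-binding protein of the FET family, and at none of the 3 SL1 genes (Taf1b, Taf1c and Taf1d). Over all genes the share with a peak in either list was 20.0%. No peak was listed at Taf1, the largest TAF.

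Taf9 had the highest fold enrichment of all member peaks. With vehicle its peak (chr13:101420990-101421425) had 39 tags (27.7 to 53.3) and a fold enrichment of 5.19, and with FGF19 the peak (chr13:101420962-101421532) had 36 tags (25.2 to 49.8) and a fold enrichment of 8.35, above 98.1% of the FGF19 list. The summit was at the same base in both lists, 147 bp upstream of Taf9 and 137 bp from the start site of Rad17 on the other strand, in the printed stretch between the genes. Its paralog Taf9b had no peak.

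Taf8, a histone-fold TAF, had nearly the same values in both lists, 31 tags and a fold enrichment of 4.29 with vehicle (chr17:47638994-47639323) and 31 tags and 4.67 with FGF19 (chr17:47639027-47639339), with the summits 140 and 55 bp downstream of the start site. At Taf3, whose PHD finger binds trimethylated histone H3, the peaks of the lists did not overlap. The vehicle peak (chr2:9970148-9970447, 20 tags, fold enrichment 3.63) had its summit 115 bp upstream and the FGF19 peak (chr2:9969779-9970117, 20 tags, fold enrichment 3.26) 195 bp downstream, with a gap of 31 bp between the peaks. Taf3 thus had SHP signal of equal pileup on either side of its start site, one side in each list.

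Taf6l was counted in both lists, but neither peak was at its promoter. The vehicle peak (chr19:8845295-8845581, 19 tags, fold enrichment 3.57) lay 3403 bp beyond the gene, the largest such distance among the members, with its summit 9 bp from a start site of Tmem223. The FGF19 peak (chr19:8848688-8849278, 32 tags, fold enrichment 5.14) had its summit 48 bp from a start site of Tmem179b and 9562 bp from that of Taf6l. The other SAGA gene, Taf5l, had an FGF19 peak (chr8:126545109-126545481) whose 21 tags gave a fold enrichment of 6.28, the third highest of that list's members, with the summit between Taf5l and Urb2, 104 and 95 bp from their start sites.

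Of the remaining TAF peaks with FGF19 only, the fold enrichment was 4.16 at Taf4a (chr2:179711335-179711893), 4.02 at Taf11 (chr17:28046265-28046550) and 5.30 at Taf15 (chr11:83286596-83287108). The Taf15 value was above 86.5% of the FGF19 list, and the Taf11 pileup of 31 tags above 81.4% of it. With vehicle only, Taf5 had a peak at chr19:47142491-47142730 with 23 tags and a fold enrichment of 4.28, its summit 402 bp downstream of the start site in a coding exon. The Taf11 summit was nearer to Anks1 (48 bp) than to Taf11 (178 bp), and that of Taf4a nearer to the noncoding transcript 4921531C22Rik (191 bp) than to Taf4a (398 bp).

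**Figure D3:**
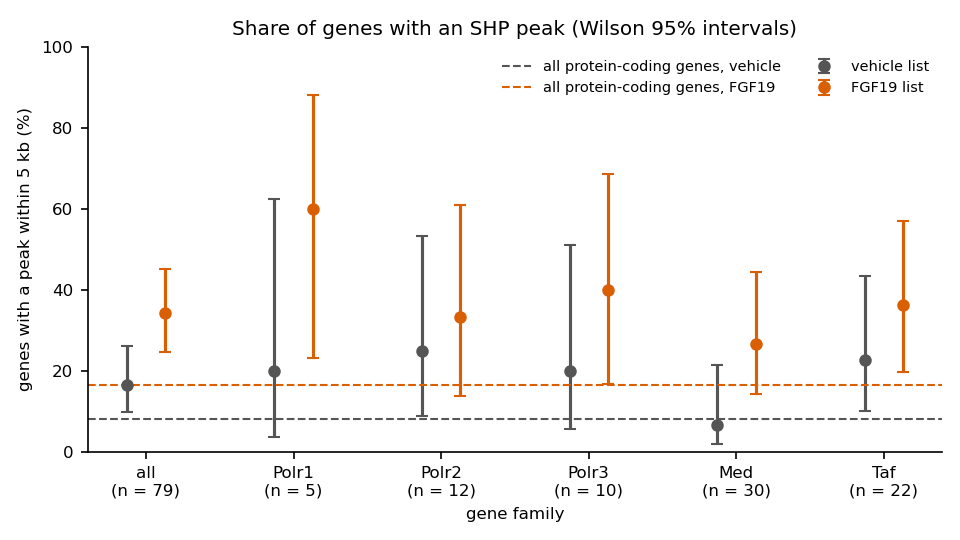
Percent of the genes of each family with a peak within 5 kb in the vehicle list (grey) and the FGF19 list (orange), with 95% Wilson intervals, and dashed lines at the 7.95% and 16.4% of all protein-coding genes. The intervals of the 5 families overlap one another within a list, and the Mediator vehicle point lies just below the vehicle line.

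The limit of 5 kb decided some of these counts. Nearest inside it were the Taf6l vehicle peak at 3403 bp, Med23 and Polr2h. Outside it, 8 genes with no counted peak had one between 5 and 10 kb away. Polr1e was the nearest of these, with an FGF19 peak of fold enrichment 3.01 at 5456 bp, and it was followed by Taf6 (7256 bp), Polr2a (7383 bp), Polr2d (7433 bp), Med21 (7805 bp), Med16 (7866 bp), Med29 (8031 bp) and Taf13 (8126 bp).

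The summits gathered at start sites. A summit within 1 kb of the gene's own start site was found for 10 genes with vehicle, 12.7% beside 5.54% of all genes, and for 23 genes with FGF19, 29.1% (20.3 to 39.9) beside 12.6%. Relative to the gene's nearest start site, 5 of these summits lay upstream and 5 downstream with vehicle. With FGF19 15 lay upstream and 8 downstream. The FGF19 summits of Polr2c, Polr2e and Polr3c, counted as upstream, lay in the 5′ UTR of their own gene, before a start site inside it. Within 250 bp of the start site were 9 of the 10 vehicle and 19 of the 23 FGF19 summits. Counting the start site of any gene, the summit was within 1 kb for 12 of 13 member peaks with vehicle (92.3%, 66.7 to 98.6) and for 25 of 27 with FGF19 (92.6%, 76.6 to 97.9), beside 72.7% and 81.8% of all peaks. The exceptions were Med23 in each list and Med20 with FGF19.

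**Figure D4:**
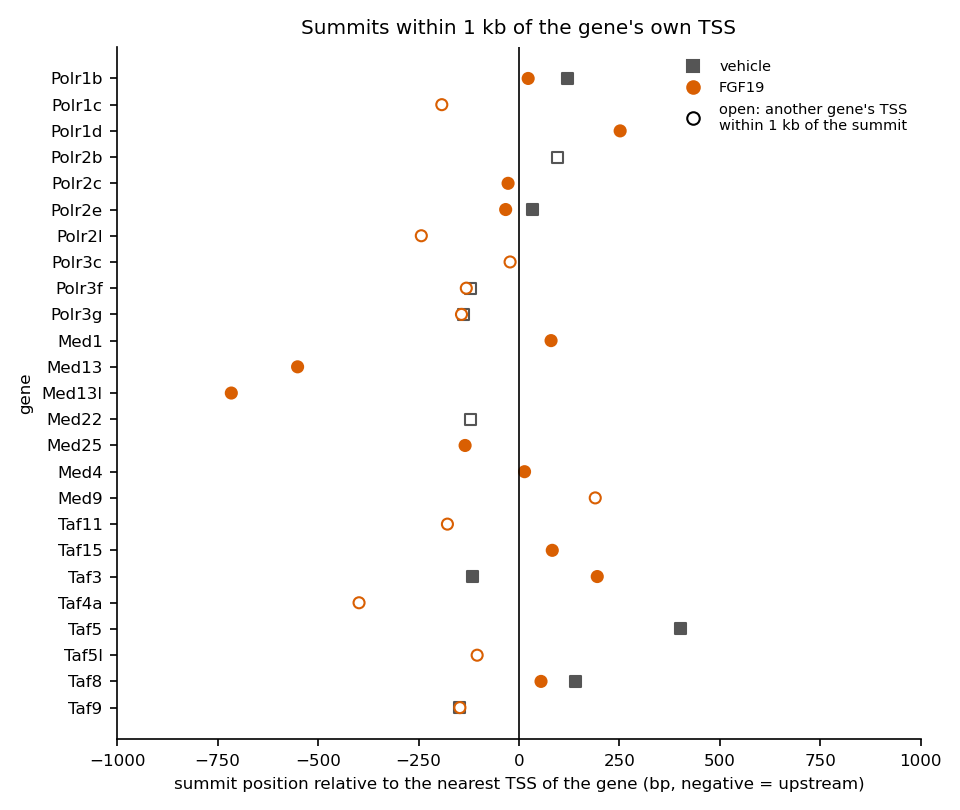
Distance in bp from the gene's nearest own start site to the peak summits within 1 kb of it (negative values are upstream), for vehicle (squares) and FGF19 (circles). Open symbols have the start site of another gene within 1 kb of the summit, and most symbols lie within 250 bp of 0.

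Many of these genes start next to another gene on the opposite strand. Of the 79, 29 had such a start site within 1 kb of their own, 36.7% beside 15.8% of all protein-coding genes. With FGF19 13 of these 29 had a peak (44.8%) and 14 of the other 50 (28%), and over all genes the shares were 30.1% and 13.8%. With vehicle it was 6 of 29 (20.7%) and 7 of 50 (14.0%), and over all genes 15.3% and 6.58%. Of the 26 genes with a summit within 1 kb of an own start site, 12 had a start site of another gene, on the opposite strand, within 1 kb of the summit, so for these the peak cannot be assigned to 1 of the genes. The summit was nearer to another gene's start site for 5 of 13 vehicle and 9 of 27 FGF19 peaks. The other 8 and 18 members kept a peak when only the gene with the nearest start site was counted. Over all protein-coding genes with a peak, 1210 of 1769 with vehicle and 2620 of 3644 with FGF19 kept one, so such losses were not particular to these genes.

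Their promoters were also rich in G and C, with a median of 59.7% in the bases from 250 before to 50 after the gene start, beside 55.3% over all genes. Among the genes with at least 60% GC there, 8 of 39 polymerase, Mediator and TAF genes had a vehicle peak, 20.5% (10.8 to 35.5) beside 12.9% of all such genes. With FGF19 18 of 39 had one, 46.2% (31.6 to 61.4) beside 28.9%. Within this stratum the vehicle interval held the background and the FGF19 interval lay above it.

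At 8 genes the vehicle and FGF19 peaks overlapped: Polr1b, Polr2e, Polr2h, Polr3f, Polr3g, Med23, Taf8 and Taf9. Their summits were 0 to 98 bp apart, with a median of 29 bp. Fold enrichment was higher with FGF19 at 5 of them and lower at 3, with a median log2 ratio of FGF19 to vehicle of 0.08 (range -1.51 to 0.68). Pileup scaled to depth, as tags per 1000000 ChIP tags, was higher with FGF19 at 4 and lower at 4, with a median log2 ratio of 0.02. For all 8 the counting interval of the pileup ratio held 1, so no difference in pileup was detectable at this depth.

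Fold enrichment divides the ChIP pileup by a local background taken from the input, so both are given. At Polr2e fold enrichment was 2.84 times lower with FGF19, while the scaled pileup was 3.94 with vehicle and 2.75 with FGF19 (ratio 0.698, interval 0.451 to 1.07). The local background implied by the pileup and the fold enrichment was 6.68 tags with vehicle and 12.4 with FGF19. At Polr3f the fold enrichment was 2.13 times lower, the pileup ratio 0.808 (0.502 to 1.29), and the implied background 5.30 tags with vehicle and 8.51 with FGF19. At Taf9, where fold enrichment was 1.61 times higher with FGF19, the pileup ratio was 1.06 (0.656 to 1.72) and the background 6.70 and 3.43 tags. Polr3g had the largest pileup ratio of the 8, 1.53 (0.841 to 2.84), with backgrounds of 4.38 and 4.64 tags. At Med23 the log2 ratio of fold enrichment was -0.79, the pileup ratio 0.967 (0.515 to 1.80) and the background 2.30 and 3.83 tags. The values of fold enrichment and input background moved in opposite directions at these genes other than Polr3g. Because the background was computed from the pileup and the fold enrichment, this follows from the formula where the pileups are similar. It is not a separate measurement of the input, and the part of the input in the ratios was not tested.

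**Figure D5:**
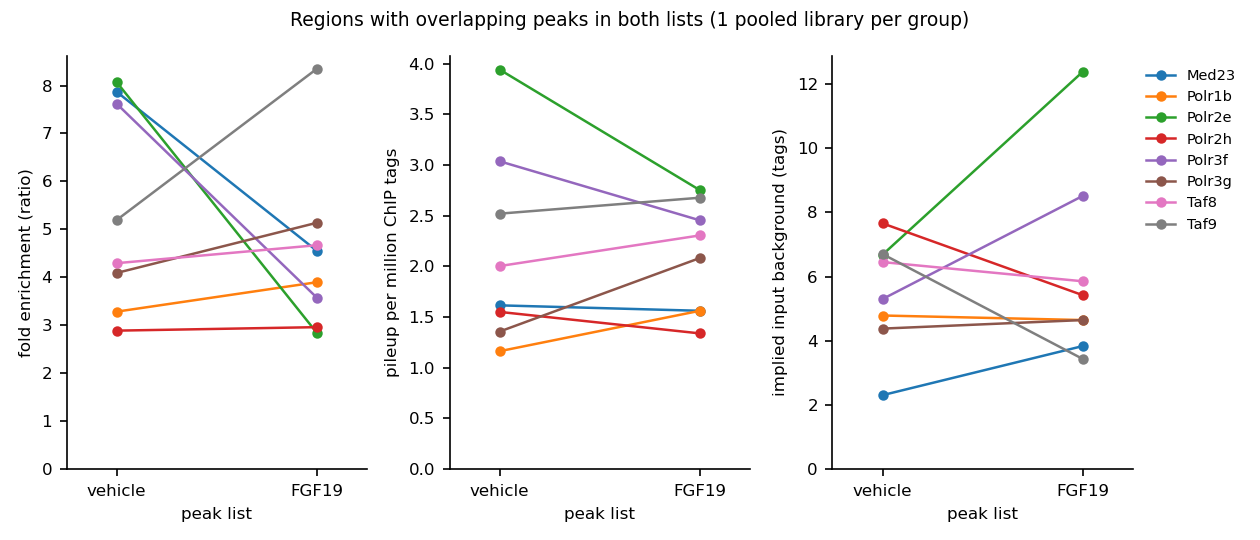
Fold enrichment (left, ratio), pileup per 1000000 ChIP tags (middle) and implied input background (right, tags) with vehicle and FGF19 at the 8 genes with overlapping peaks, 1 line per gene and 1 pooled library per point. Fold enrichment goes down most for Polr2e and Polr3f, whose background goes up, and goes up most for Taf9, whose background goes down. The background is computed from the other values and was not measured separately.

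Sequence motifs were counted as exact matches on either strand in the 201 bases around each summit. The ETS core CCGGAAG was found at 1 of 13 vehicle member peaks (Taf3), beside 7.82% of all vehicle peaks. With FGF19 it was at 6 of 27 member peaks (Med1, Med4, Polr2c, Taf5l and Taf6l among them), 22.2% (10.6 to 40.8). The share was 9.70% of all FGF19 peaks and 9.43% of promoter windows of the same length. In such windows at the gene starts of the 79 members it was 34.2%. That was 23.3% for members with a peak and 40.8% for those without, so the core was not more frequent where a peak lay. The YY1/SRE core AANATGGC was at 1 of 13 (Taf6l) and 4 of 27 (Med1, Med25, Taf4a and Taf8), beside 9.75% and 7.54% of all peaks. It was in 5.75% of promoter windows and in 20.3% of those of the 79 members. The SP1 sequence CCCCGCCCC was at 1 of 13 and 3 of 27 member summits, at Polr2e in both lists and at Taf5l with FGF19 among them, beside 13.1% and 14.8% of all peaks.

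The other motifs were rare. The NF-Y sequence ATTGGC was at 1 summit (Med20 with FGF19), beside 11.2% and 11.1% of all vehicle and FGF19 peaks and 12.0% of promoter windows. The NRF1 core CGCATGCG was at 1 summit (Med4 with FGF19), beside 1.92% and 2.35% of all peaks and 1.80% of promoter windows. Neither the nuclear receptor half-site AGGTCA nor the ZBTB33 core CTCGCGAG was within 100 bp of any member summit, beside 9.08% and 7.13% of all peaks for the half-site and 3.38% and 2.06% for the ZBTB33 core. In 0 of 27 FGF19 peaks the Wilson interval for these reaches 12.5%. Matches farther from the summit were not counted, and the printed Polr2e stretch, inside the member peak with the highest pileup of each list, holds 1 half-site beyond that window.

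The general transcription factors and other machinery genes outside the name rule gave similar counts. Of 57 such genes 12 had a vehicle peak (21.1%), 19 an FGF19 peak (33.3%) and 22 a peak in either list (38.6%). Gtf3c4, a subunit of the polymerase III factor TFIIIC, had peaks with 53 and 38 tags and fold enrichments of 7.01 with vehicle and 5.53 with FGF19. Supt5h, a subunit of the pausing factor DSIF, had 48 and 39 tags and fold enrichments of 6.19 and 5.84, and Cdk9, the kinase that releases paused polymerase II, had fold enrichments of 3.67 and 5.58. For the polymerase I system, Rrn3 had a peak with FGF19 only (fold enrichment 5.30) and Ubtf with vehicle only (5.17).

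As a check of the tissue, peaks lay at 9 of 10 hepatocyte marker genes in both lists (not at Serpina1a). None lay at the 3 Kupffer cell or 2 stellate cell markers, and of the 2 cholangiocyte markers Sox9 had one with FGF19. Whole liver was used, and peaks at a gene do not measure its expression.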

How the data were processed

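SHP ChIP and input libraries (1 of each per group) were sequenced in 1 lane (CASAVA 1.8.2), aligned to mm9 with Bowtie 1.0.0 with up to 2 mismatches, and the authors called peaks against input with MACS2 2.0.10.20130501 at a q-value cutoff of 0.05, with at most 1 tag kept per position. The deposited lists give the pileup signal at the summit in tags, the fold enrichment as a ratio of pileup to local background, and −log10 q-values. As the ChIP library was the smaller in each group, pileups are unscaled.

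Peaks were assigned to genes of GENCODE M1 (protein-coding symbols, all transcripts) in Python 3.11.15 with numpy 2.4.6, pandas 2.3.3 and scipy 1.17.1. Local background was computed as the pileup plus 1 tag, divided by the fold enrichment, minus 1 tag. Shares have Wilson intervals, pileups exact Poisson intervals and pileup ratios exact conditional binomial intervals, all at 95% and for counting error only. With 1 pooled library per group no test was made. Overlap meant at least 1 shared bp. The intersection functions were tested on simulated data (4 of 4 checks passed). Members and gene lists were chosen with earlier results of these data known. Every member with a peak is named, except 1 that is in the counts but not reported here on its own, with full values for peaks in both lists, the 3 largest and 3 smallest fold enrichments, the 3 largest pileups and summits over 1 kb from the member's start site. Alternatives were other reaches (0, 1 and 10 kb), a q-value of 0.01, assignment by the nearest or own start site, equal list lengths and other scalings.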

Additional observations from a re-analysis of the deposited data

How the results depend on the processing

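Of 52 alternative values for the comparisons, 44 stayed within 1.5 times the reported count or within the reported spread. Direction was not part of this rule. The share with vehicle only was 3.80% beside 3.63% of all genes, and with nearest-start assignment 2.53% beside 2.88%. The other 8 of the 52 values moved. Counting only peaks whose summit was nearer to the member's start site than to any other gene's gave 8 members with vehicle and 6 in both lists. These were 10.1% and 7.59% of members, beside 5.44% and 2.56% of all genes. Shortening the FGF19 list to the vehicle number of peaks gave 13 members with FGF19 (16.5%), beside 8.09% of all genes. It gave 7 with FGF19 only (8.86% beside 5.37%), 7 with vehicle only (8.86% beside 5.24%) and 6 in both lists (7.59% beside 2.72%). Scaling to 1000000 ChIP tags gave median pileups of 1.55 with vehicle and 1.86 with FGF19, a change of unit. Of 70 alternative values for the families, 57 were within 1.5 times and 13 were not. At equal list lengths FGF19 peaks lay at 1 Polr1, 0 Polr2 and 2 Med genes, so that Polr2 had more genes with vehicle (3). Nearest-start assignment gave 2 Polr2 genes with FGF19, 0 Med genes with vehicle and 3 Taf genes in each list. Peaks over the gene body gave 2 Polr2 and 4 Med genes with FGF19. The vehicle count of Med genes was 1 over the body, within 1 kb of it or within 1 kb of the start site, and 4 within 10 kb. At a q-value of at most 0.01 the counts of members were 13 with vehicle and 27 with FGF19, as reported, beside 7.59% and 15.9% of all genes. No paired analysis was possible because each group has 1 pooled library and no test was made. Depth limits the pileup comparisons, since summits hold 16 to 61 tags, and genes below the cutoff have no value in the lists.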

Other observations

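The promoters of these genes were also scanned whether or not a peak lay there, in the 201 bases around each gene start. The ETS core was found in 27 of the 79 promoters (34.2%), beside 9.43% of all promoters and 13.3% of promoters with at least 60% GC. By family it was in 2 of 5 Polr1, 6 of 12 Polr2, 2 of 10 Polr3, 9 of 30 Med and 8 of 22 Taf promoters. The YY1/SRE core was in 16 (20.3%), beside 5.75% of all promoters, and 7 of these belonged to Taf genes and none to Polr2 genes. The ETS core was in 7 of the 30 promoters of genes with a peak and in 20 of the 49 without, and the YY1/SRE core in 7 and 9. The NF-Y sequence was in 1 of the 30 and 9 of the 49, and the nuclear receptor half-site in 0 and 6. These counts describe letters in the reference sequence and say nothing of which factor binds there.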
